A study of Mus musculus with 168 samples.

Results

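Growth factor receptor kinases are described here as a set of 10 named genes: the EGF receptor family (Egfr, Erbb2, Erbb3 and Erbb4), the FGF receptors Fgfr1, Fgfr2 and Fgfr3, the neurotrophin receptor Ntrk2 (TrkB), and the insulin receptor family (Igf1r and Insr). They were taken by name out of 42405 gene symbols, and all 10 were measured in single brain cells of old male C57BL/6 mice. Each was followed by its level and by the share of cells in which it was detected. Within the neurogenic niche, cells were further ordered by their ribosomal protein share and by the proliferation gene Mki67.

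The data were full-length (Smart-seq2) profiles of 150 hand-picked single cells. There were 13 GLAST+ CD45- O4- astrocytes from the striatum with the subventricular zone removed, 4 from the somatosensory cortex, and, from the lateral subventricular zone (SVZ), the remaining GLAST+ CD133+ CD45- O4- neural stem cells, in 2 name series of 68 (ogp) and 65 cells (ogp2). No allele or agent is named for any group, and all cells came from C57BL/6 males. Astrocytes were labelled 25 months old and came from pools of 3 to 4 mice. SVZ cells were labelled 23 months old, while the protocol gives 22 months and pools of 4 mice. Because no cell is tied to an animal, each tissue counts as 1 sample and no test between groups was made. Tissue, age, gate (CD133 for the SVZ cells) and deposited table differ together and cannot be told apart. All values are TPM, transcripts per 1000000 transcripts, which correct for gene length, so levels of different genes can be set beside each other within a cell; the number of reads per cell is unknown.

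These receptors are single-pass proteins with a tyrosine kinase inside the cell. In many of them, ligand binding brings receptor molecules together in pairs. The paired molecules phosphorylate each other and recruit adaptors that switch on the Ras-ERK and PI3K-Akt routes. In the adult SVZ, quiescent stem cells resemble astrocytes, and EGF receptor is widely used as a marker of activated stem cells and their transit amplifying progeny, while Fgfr3 and Ntrk2 are known as astrocyte genes. Most TrkB of astrocytes is a truncated form without the kinase; TPM summed over a gene does not separate the forms.

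Egfr lies at chr11:16752203-16918158, Fgfr3 at chr5:33721674-33737068 and Ntrk2 at chr13:58806569-59133970, all on the + strand of GRCm38 in the GENCODE annotation. The 250 bases upstream of the RefSeq transcription start of these 3 genes are shown (GRCm38.p6, for Fgfr3 the first of 2 starts). These are the members followed most closely in the SVZ cells below. Capitals mark GC boxes, the letters GGGCGG on either strand, the classical binding site of Sp1.

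Egfr (chr11:16751953-16752202, + strand): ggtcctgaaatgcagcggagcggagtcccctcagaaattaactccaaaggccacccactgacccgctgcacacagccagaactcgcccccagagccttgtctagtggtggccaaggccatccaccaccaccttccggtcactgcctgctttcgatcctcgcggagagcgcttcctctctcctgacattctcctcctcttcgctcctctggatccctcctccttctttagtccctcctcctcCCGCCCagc
Fgfr3 (chr5:33721474-33721723, + strand): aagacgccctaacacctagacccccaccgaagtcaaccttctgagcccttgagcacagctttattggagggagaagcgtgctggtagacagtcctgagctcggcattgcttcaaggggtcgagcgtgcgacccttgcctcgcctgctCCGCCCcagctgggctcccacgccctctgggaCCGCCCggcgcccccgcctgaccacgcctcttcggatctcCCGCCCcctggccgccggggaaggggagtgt
Ntrk2 (chr13:58806319-58806568, + strand): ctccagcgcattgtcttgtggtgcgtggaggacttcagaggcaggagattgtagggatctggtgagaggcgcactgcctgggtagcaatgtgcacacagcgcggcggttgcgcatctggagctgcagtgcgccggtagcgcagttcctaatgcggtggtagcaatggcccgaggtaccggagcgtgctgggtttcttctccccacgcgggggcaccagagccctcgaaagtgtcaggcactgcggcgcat

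A promoter was found for 7 of the 10 members, and none of those windows held the letters TATAAA on either strand, against 12.4% of all 32851 promoter windows of the same length. A GC box was present once in the Egfr window and 3 times in the Fgfr3 window shown, but not in the Ntrk2 window; 32.7% of all windows held at least 1. Fgfr3 has a second RefSeq start, whose window (chr5:33722056-33722305) held 2 GC boxes and 72.8% G and C. The G and C content was 60.8% for Egfr, 66.8% for the Fgfr3 window shown and 62.8% for Ntrk2, against a median of 52.4% over all windows. These matches describe letters only.

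The labels were compared with marker genes first. Slc1a3, which encodes the GLAST protein of the gate, was detected in every cell of all 3 tissues, at means of 3317 TPM in striatum, 3302 TPM in cortex and 3373 TPM in SVZ. Prom1, which encodes CD133, was detected in 0 of 13 striatum cells, in 1 of 4 cortex cells and in 14 SVZ cells (10.5%), so RNA for the SVZ gate gene was sparse. The summed level of 17 astrocyte and quiescent stem cell markers, a list that includes Fgfr3, had a median of 75563 TPM in striatum, 60145 TPM in cortex and 80777 TPM in SVZ cells. In 6 SVZ cells, oligodendrocyte or microglia markers passed 1000 TPM. The median number of genes detected per cell was 3636 in striatum, 3388 in cortex and 3479 in SVZ cells. No 2 cells had identical values.

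Across the tissues, 2 receptors carried most of the signal. Fgfr3 and Ntrk2 were detected in all 13 striatum and all 4 cortex cells, and Fgfr3 in 89.5% and Ntrk2 in 98.5% of SVZ cells. Fgfr2 and Insr were present in part of the cells of every tissue, and Fgfr1 in part of the striatum and SVZ cells and all 4 cortex cells. Egfr was detected in 23.1% of striatum, 25% of cortex and 39.8% of SVZ cells. Erbb2, Erbb4 and Igf1r were listed at 0 in most cells of every tissue, and Erbb3 reached 1 TPM in none. The 10 receptors together summed to a median of 1562 TPM per striatum cell, 1618 TPM per cortex cell and 1009 TPM per SVZ cell.

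**Figure D1:**
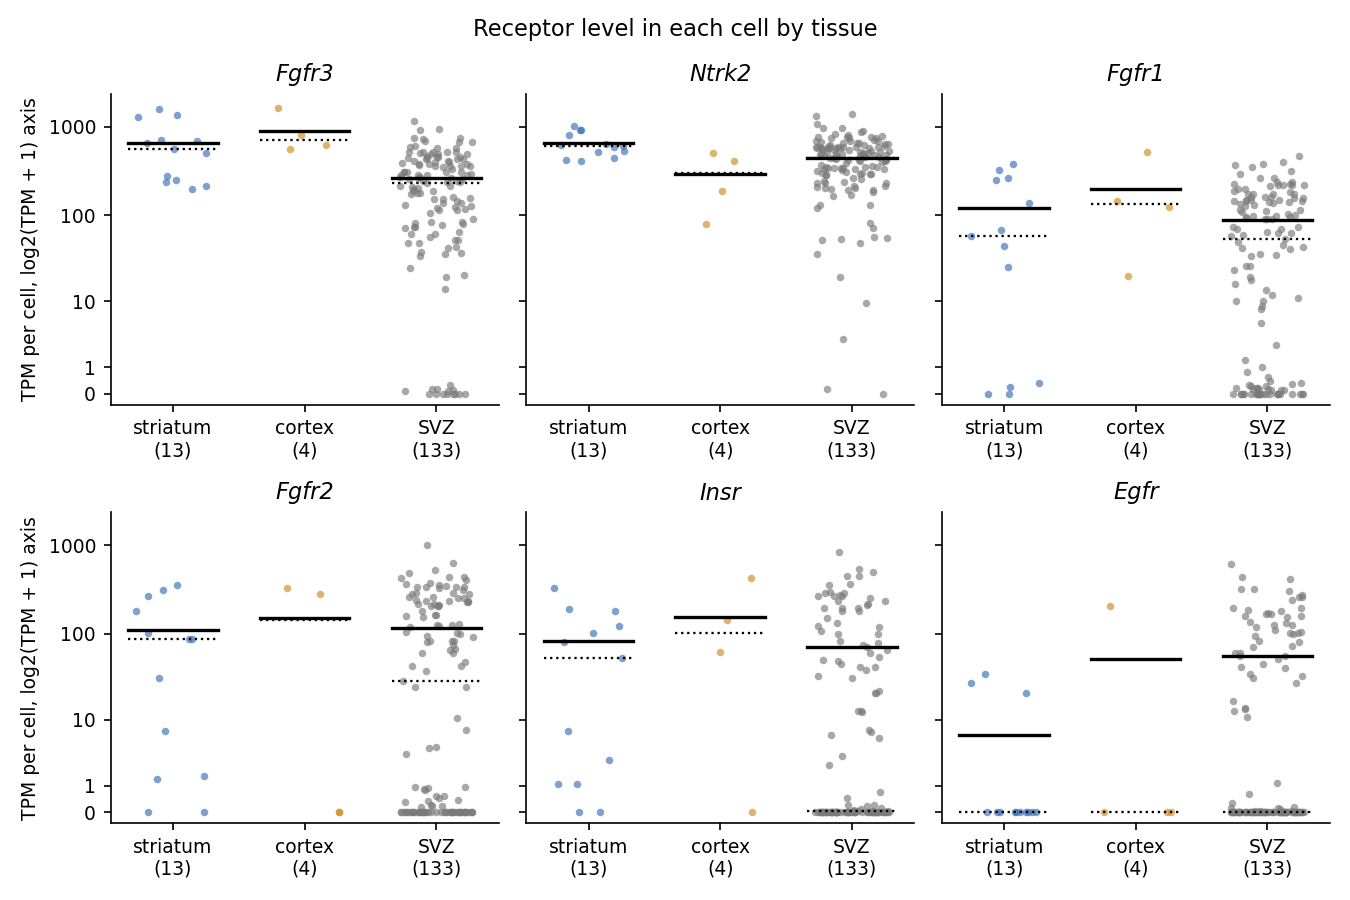
Level of 6 receptors in each striatum, cortex and SVZ cell (number of cells in parentheses), in TPM on a log2(TPM + 1) axis; solid lines are means and dotted lines medians of TPM. Fgfr3 and Ntrk2 were above 1 TPM in every striatum and cortex cell, whereas Egfr was at 0 in the median cell of all 3 tissues.

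Fgfr3, a receptor for FGF ligands that is carried by astrocytes, ran from 198 to 1592 TPM with a median of 562 TPM in striatum cells. The 4 cortex cells had 614.5, 558, 803 and 1598 TPM. SVZ cells ran from 0 to 1147 TPM with a median of 234 TPM. All but 2 striatum cells and every cortex cell lay above the SVZ median, but the ranges overlapped. The means were 656 ± 472 TPM in striatum (SD over 13 cells), 893 ± 481 TPM in cortex (4 cells) and 263 ± 227 TPM in SVZ (all 68 ogp and 65 ogp2 cells). On the scale of log2 of mean TPM + 1, used for every difference below, this was 1.31 higher in striatum than in SVZ and 1.76 higher in cortex than in SVZ. Against the low-ribosome SVZ cells alone, defined below, the striatum mean was 1.07 higher, just past 2-fold; it was 0.92 higher without the highest cell of each group and 0.81 higher against ogp cells alone, both under 2-fold.

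Ntrk2, the receptor for brain-derived neurotrophic factor, was the most evenly expressed member in striatum, where cells ran from 413 to 1008 TPM with a median of 607 TPM. The 4 cortex cells had 408, 189, 79.7 and 506 TPM. SVZ cells ran from 0 to 1383 TPM with a median of 446 TPM. The mean was 649 ± 199 TPM in striatum and 296 ± 196 TPM in cortex, a log2 difference of 1.13, with 1 cortex cell, the one at 506 TPM, inside the striatum range. Without the cortex cell at 79.7 TPM the difference was 0.82, and without the one at 189 TPM it was 0.97, both under 2-fold. It was 444 ± 255 TPM in SVZ, 0.55 below striatum on the log2 scale. Fgfr3 exceeded Ntrk2 in all 4 cortex cells, in 5 of 13 striatum cells and in 30 SVZ cells. In striatum the order of these 2 receptors turned with the statistic, since Ntrk2 had the higher median and Fgfr3 the slightly higher mean, whereas in cortex Fgfr3 was higher by both.

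Fgfr1, the FGF receptor with the broadest tissue distribution, was detected in 9 of 13 striatum cells (mean 120 TPM), in all 4 cortex cells and in 92 SVZ cells (69.2%, mean 87.9 TPM). The cortex cells had 144.6, 19.95, 123.6 and 513.3 TPM, and their mean of 200 TPM, 1.18 above SVZ on the log2 scale, leaned on the highest of them: without it the difference was 0.13. Fgfr2 was detected in 11 of 13 striatum cells, in 2 of 4 cortex cells (328 and 284 TPM) and in 74 SVZ cells (55.6%), with means of 110 TPM in striatum, 153 TPM in cortex and 116.7 TPM in SVZ. The 3 tissues did not separate by Fgfr2. Within the FGF receptors, Fgfr3 was the highest in 10 of 13 striatum cells, in 4 of 4 cortex cells and in 86 SVZ cells.

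Insr, the insulin receptor, was detected in 11 of 13 striatum cells (84.6%, exact 95% interval 54.6 to 98.1%), in 3 of 4 cortex cells and in 58 SVZ cells (43.6%, 35.03 to 52.5%); intervals here and below cover counting error only. Its mean was 82.7 TPM in striatum, 157 TPM in cortex and 69.98 TPM in SVZ. The cortex cells had 422, 0, 143 and 62.3 TPM, and the cortex mean was 1.15 above that of SVZ with the highest of them and -0.03 without it. The share of striatum cells was higher than that of SVZ cells while the means differed by 0.24 on the log2 scale. Striatum cells at 1.07, 1.11 and 2.92 TPM, close to the detection limit of 1 TPM, count as positive in that share. The SVZ share was 55.9% in ogp and 30.8% in ogp2 cells. The median of the positive cells was 80.3 TPM in striatum and 104.1 TPM in SVZ. Igf1r, the receptor for insulin-like growth factor 1, was detected in 1 of 13 striatum cells (24.2 TPM), in 1 of 4 cortex cells (4.75 TPM) and in 16 SVZ cells (12.03%, at most 244 TPM).

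Egfr was the one member called lower in striatum than in SVZ. It was detected in 3 of 13 striatum cells, at 27.5, 34.6 and 20.8 TPM. In cortex it was detected in 1 of 4 cells, at 209 TPM. In SVZ it was detected in 53 cells (39.8%), up to 620 TPM, with a median of 103.8 TPM among those cells. By name series the SVZ share was 54.4% in ogp and 24.6% in ogp2 cells. The striatum mean of 6.38 ± 12.4 TPM was 2.94 lower on the log2 scale than the SVZ mean of 55.4 ± 103.3 TPM. The cortex mean of 52.2 TPM rested on 1 cell, and the other 3 cortex cells were listed at 0, so the order of striatum and cortex turns with that cell. Against low-ribosome SVZ cells the striatum mean was 1.86 lower. On means of log values that difference was -0.49 and no longer 2-fold. The share of positive cells was 23.1% in striatum and 26.7% in low-ribosome SVZ. The latter pooled 39.1% of ogp and 16.4% of ogp2 cells, so striatum lay between the 2 name series.

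The other EGF family receptors were scarce. Erbb2, which binds no ligand and serves as a partner for the others, was detected in 2 of 13 striatum cells (120.9 and 5.50 TPM), was listed at 0 in all 4 cortex cells and was detected in 15 SVZ cells (11.3%). Erbb4, a neuregulin receptor, was detected in 1 of 13 striatum cells (239 TPM), was listed at 0 in the cortex cells and was detected in 6 SVZ cells (4.51%). A single SVZ cell at 758 TPM held 88.4% of all Erbb4 signal of that tissue; its oligodendrocyte lineage markers summed to 6971 TPM. The Erbb4 mean, 18.4 TPM in striatum and 6.44 TPM in SVZ, passed a 2-fold difference on those 2 cells; without the highest cell of each group the difference was -0.81. Erbb3, the neuregulin receptor with an impaired kinase, reached 1 TPM in none of the 150 cells.

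**Figure D2:**
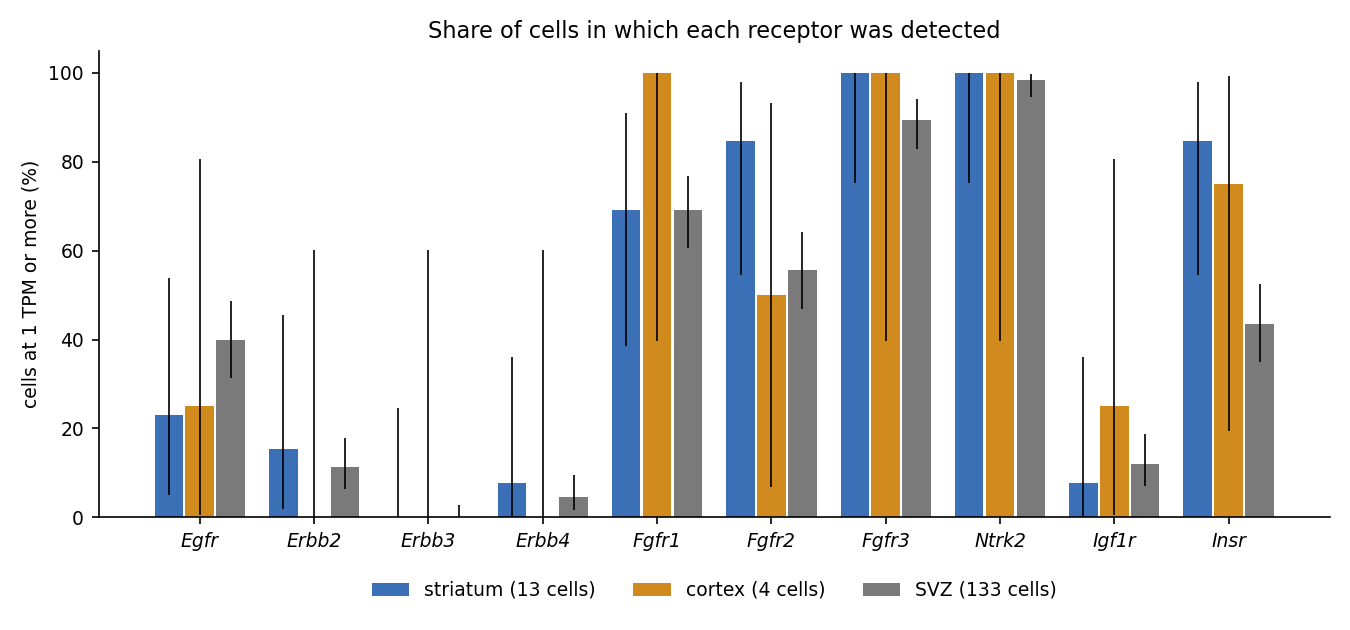
Percent of striatum, cortex and SVZ cells in which each of the 10 receptors reached 1 TPM; lines are exact 95% intervals for counting error. Fgfr3 and Ntrk2 reached 100% of striatum and cortex cells, Egfr was detected in 39.8% of SVZ cells, and no cell reached 1 TPM of Erbb3.

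A gene is called here when its means differ 2-fold or more and reach 10 TPM in either group. Between striatum and SVZ, 7 members reached that level; Fgfr3 and Erbb4 were called higher and Egfr lower, when 12.3% of the 9080 genes compared were called higher and 28.3% lower. Between cortex and SVZ, Fgfr1, Fgfr3 and Insr were called higher out of 6 members and none lower, against 20.7% and 43.4% of genes. Between striatum and cortex, Ntrk2 and Erbb4 were called higher and Egfr lower out of 7, against 38.3% and 28.9% of genes. Between striatum and the low-ribosome SVZ cells, Fgfr3 and Erbb4 were called higher and Egfr lower out of 7, against 14.2% and 24.5% of genes. With backgrounds this high, a 2-fold difference of 1 member is no unusual event, and the per-cell values above are the better description. The median difference of the members, 0.44 for striatum against SVZ and 0.77 for cortex against SVZ, stood beside medians of -0.26 and -0.49 over all genes compared.

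Within the SVZ, the share of each cell's TPM that fell in 77 cytosolic ribosomal protein genes gives a scale related to protein synthesis, which is known to be low in quiescent stem cells. It ran from 0.659 to 14.8%. Cells at 6% or more are called ribosome-rich (21 cells), those from 3 to 6% intermediate (11 cells) and those under 3% low-ribosome (46 ogp and 55 ogp2 cells). These are ranges of a continuous measure and not cell types: 9 cells lay between 2.5 and 3.5% and 6 cells between 5 and 7%. The cells just outside and inside the upper limit had 5.76 and 6.32%, those at the lower limit 2.91 and 3.02%. Markers moved along with this scale. The 12 activated stem cell and transit amplifying markers, which include Egfr, summed to a median of 2833 TPM in ribosome-rich and 220 TPM in low-ribosome cells. The 17 astrocyte and quiescent stem cell markers summed to a median of 5036 TPM in ribosome-rich and 90394 TPM in low-ribosome cells. The median number of genes detected was 6285 in ribosome-rich, 4174 in intermediate and 3217 in low-ribosome cells, and its part in the differences below was not tested beyond the values given.

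Mean Egfr was higher and the means of the 3 FGF receptors and of Ntrk2 were lower in ribosome-rich cells. Insr also had a lower mean there, while its share of positive cells was higher in ogp and lower in ogp2 cells. Egfr was detected in 20 of 21 ribosome-rich cells (95.2%, exact 95% interval 76.2 to 99.9%), in 6 of 11 intermediate cells and in 27 low-ribosome cells (26.7%, 18.4 to 36.5%). Its level ran from 0 to 620 TPM with a median of 167 TPM in ribosome-rich cells. In low-ribosome cells it ran from 0 to 323 TPM with a median of 0. The groups overlapped, since the highest low-ribosome cells exceeded the median ribosome-rich cell. The means were 200.5 ± 155 TPM in ribosome-rich, 50.98 ± 62.6 TPM in intermediate and 25.8 ± 59.7 TPM in low-ribosome cells, and the ribosome-rich mean was 2.91 above the low-ribosome mean on the log2 scale.

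Fgfr3 ran the other way. It reached at most 215 TPM in ribosome-rich cells, with a median of 48.7 TPM. In low-ribosome cells the median was 288 TPM and the highest cell had 943 TPM. The means were 57.8 ± 55.9 TPM in ribosome-rich, 211 ± 328 TPM in intermediate and 312 ± 213 TPM in low-ribosome cells, a log2 difference of -2.41 between the outer groups. A single cell at 1147 TPM held 49.4% of the intermediate sum, and the intermediate median was 115.4 TPM. It was still detected in 16 of 21 ribosome-rich cells, 76.2% of them, against 92.1% of low-ribosome cells, so the difference lay more in the level than in the share.

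Fgfr2 averaged 38.3 ± 49.4 TPM in ribosome-rich and 142 ± 178 TPM in low-ribosome cells, a log2 difference of -1.87. Fgfr1 averaged 44.9 ± 60.7 TPM in ribosome-rich and 100.1 ± 110 TPM in low-ribosome cells, a log2 difference of -1.14. The share of cells with Fgfr1 was nearly equal, 66.7% of ribosome-rich and 69.3% of low-ribosome cells. Summed over Fgfr1, Fgfr2 and Fgfr3, the median cell had 142 TPM in the ribosome-rich and 545 TPM in the low-ribosome range.

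Insr averaged 24.3 ± 33.1 TPM in ribosome-rich and 81.8 ± 147 TPM in low-ribosome cells, a log2 difference of -1.71 that was -0.18 between means of log values. The pooled share of cells went against the mean, with 52.4% of ribosome-rich and 42.6% of low-ribosome cells positive. Within ogp the shares were 66.7% of ribosome-rich and 52.2% of low-ribosome cells. Within ogp2 they were 16.7% (1 of 6 cells) and 34.5%, the other way, so no order is read from Insr. Igf1r stayed below a mean of 10 TPM in every range. Erbb2 was detected in 1 of 21 ribosome-rich and 13 low-ribosome cells, and Erbb4 in 1 of 21 ribosome-rich and 4 low-ribosome cells.

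Ntrk2 was detected in 19 of 21 ribosome-rich and in all low-ribosome cells. It ran from 0 to 687 TPM with a median of 119.5 TPM in ribosome-rich cells. In low-ribosome cells it ran from 36.5 to 1383 TPM with a median of 484 TPM. The means were 215 ± 230 TPM in ribosome-rich, 396 ± 291 TPM in intermediate and 496 ± 230 TPM in low-ribosome cells, a log2 difference of -1.20. The groups overlapped, since the highest ribosome-rich cells lay above the median low-ribosome cell.

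Of the 6 members that reached 10 TPM in either range, Egfr was called higher and the other 5 lower, when 26.8% of the 9283 genes compared were called higher and 23% lower. The members' median difference was -1.46, beside 0.16 over all genes compared. Among 43 other receptor tyrosine kinases, 10 could be compared and 1 was higher and 5 lower, with a median of -1.46 as well. Ddr1, a collagen receptor, averaged 108.6 TPM in ribosome-rich and 47.9 TPM in low-ribosome cells, while Mertk, a receptor of phagocytosis carried by astrocytes, averaged 17.4 TPM in ribosome-rich and 179 TPM in low-ribosome cells.

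**Figure D3:**
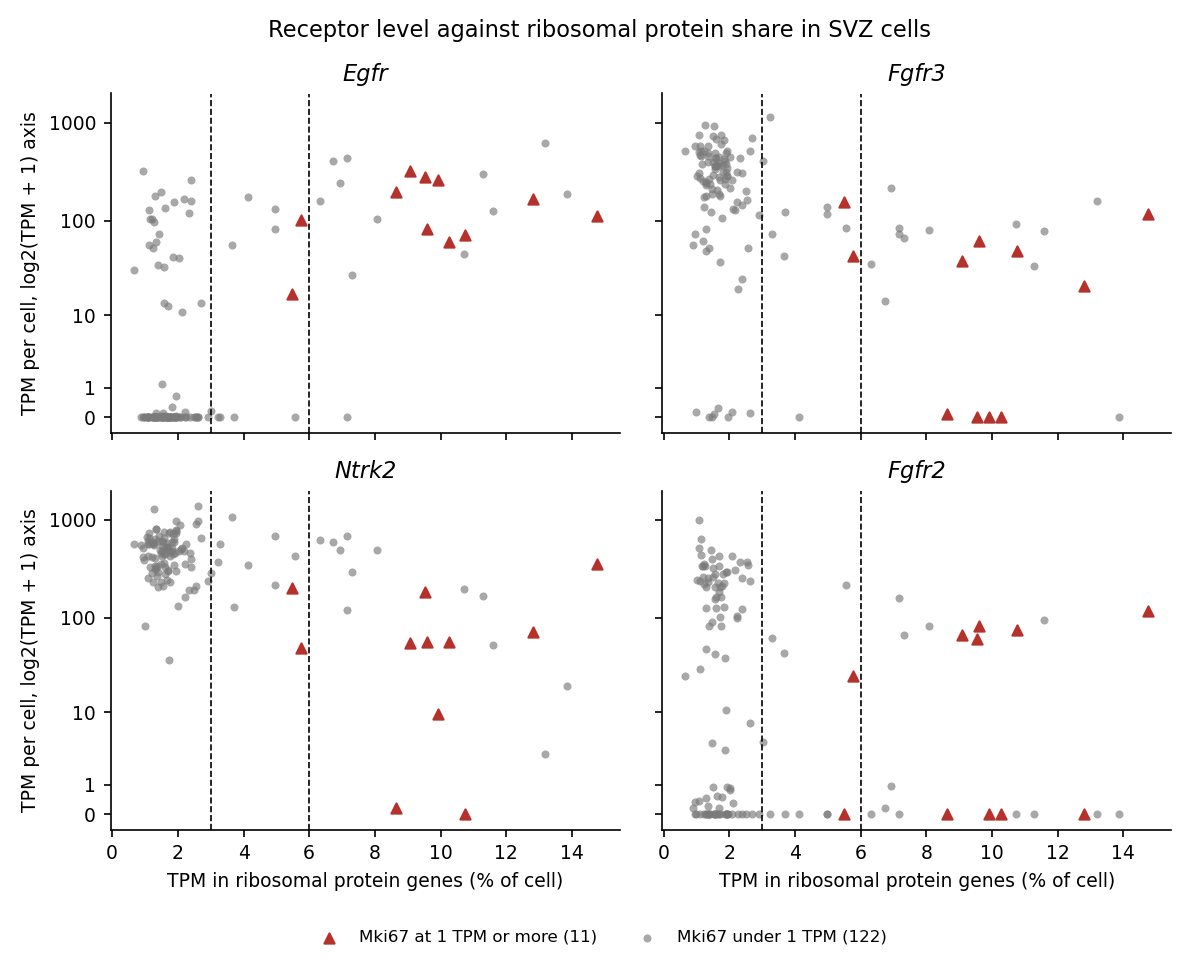
Level of Egfr, Fgfr3, Ntrk2 and Fgfr2 in each SVZ cell, in TPM on a log2(TPM + 1) axis, against the percent of the cell's TPM in ribosomal protein genes; dashed lines mark 3 and 6%, and red triangles the 11 cells with Mki67. Right of 6%, 20 of 21 cells had Egfr, and no cell exceeded 215 TPM of Fgfr3.

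The meaning of the ogp and ogp2 names is not stated; 15 of the 21 ribosome-rich cells were ogp. Within ogp the log2 difference between ribosome-rich and low-ribosome cells was 2.62 for Egfr and -2.71 for Fgfr3, and within ogp2 it was 2.92 for Egfr and -2.06 for Fgfr3. Ntrk2 differed by -1.94 within ogp and by -0.20 within ogp2, where ribosome-rich cells averaged 414 TPM and low-ribosome cells 474 TPM. Fgfr1 differed by -1.74 within ogp and by -0.26 within ogp2. The Egfr and Fgfr3 differences were therefore large in both series, and those of Ntrk2 and Fgfr1 in 1 of them. Restricted to cells with at least 4000 detected genes, 20 ribosome-rich and 11 low-ribosome, the difference was 2.84 for Egfr, -2.63 for Fgfr3, -1.41 for Ntrk2 and -0.51 for Fgfr1.

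The balance between receptors differed cell by cell. Egfr exceeded Fgfr3 in 17 of 21 ribosome-rich cells, in 3 of 11 intermediate cells and in 4 low-ribosome cells. It exceeded Ntrk2 in 13 of 21 ribosome-rich cells, in 1 of 11 intermediate cells and in no low-ribosome cell. Egfr and Fgfr3 were nonetheless found together, in 15 of 21 ribosome-rich cells and in 27 low-ribosome cells. All 27 low-ribosome cells with Egfr thus also had Fgfr3. Fgfr3 was detected in 92.1% of all low-ribosome and 76.2% of all ribosome-rich cells, so no link is read from these counts.

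Those 27 low-ribosome cells had a median of 72.01 TPM of Egfr, and at most 323 TPM. Their mean Fgfr3 was 359 TPM, against 295 TPM in the 74 low-ribosome cells without Egfr. Their mean Ntrk2 was 456 TPM, against 511 TPM in those without. Fgfr3 ran from 24.7 to 923 TPM in the cells with Egfr and from 0 to 943 TPM in those without, so the ranges coincided. The Egfr-positive cells had a median of 3609 detected genes, the others 3063.5, and 18 of the 27 were ogp cells against 28 of the 74. The part of detection depth in finding Egfr there was not tested.

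Over all SVZ cells, Spearman's rho with the ribosomal share was 0.40 for Egfr, -0.44 for Fgfr3, -0.31 for Ntrk2 and -0.25 for Fgfr2. Within the low-ribosome cells it was -0.02 for Egfr, -0.14 for Fgfr3 and 0.01 for Ntrk2. The rho of Egfr with the number of detected genes was 0.55 over all SVZ cells and 0.35 within the low-ribosome cells. The relation to the ribosomal share therefore lay between the ranges and not within the low one. Cells came from pools of mice and their read depth is unknown, so no p-value is attached. Among members, the highest rho was 0.34, between Fgfr3 and Ntrk2, and the lowest -0.29, between Egfr and Ntrk2.

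The genes most like each receptor over all SVZ cells were taken from 6195 genes detected in at least 20% of them, and predicted genes and pseudogenes were passed over. For Egfr, where such genes ranked among them, the first named ones were Hnrnpa1, an RNA-binding protein (rho 0.53), Ramac, a cofactor of the mRNA cap methyltransferase (0.50), and the ribosomal protein gene Rps15a (0.50). For Fgfr3 they included Bcan, the matrix proteoglycan brevican (rho 0.57). For Ntrk2 they were Pla2g7, a secreted phospholipase (0.48), Plpp3, a lipid phosphatase (0.45), and S1pr1, a sphingosine phosphate receptor (0.45). Within low-ribosome cells alone rho was lower, at 0.23 for Hnrnpa1, 0.33 for Ramac and 0.25 for Rps15a with Egfr, 0.40 for Bcan with Fgfr3, and 0.26 to 0.28 for the 3 genes with Ntrk2.

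Mki67, a marker of cycling cells, reached 1 TPM in 0 of 13 striatum cells, 0 of 4 cortex cells and 11 SVZ cells (8.27%), of which 9 were ribosome-rich and 2 intermediate. All 11 cells with Mki67 had Egfr, at 16.9 to 320 TPM with a median of 111.9 TPM. Of the cells without Mki67, 42 had Egfr (34.4%), and the range over all of them was 0 to 620 TPM. The means were 151 ± 99.97 TPM with Mki67 and 46.8 ± 99.5 TPM without, a log2 difference of 1.67. Every Mki67-positive cell carried Egfr, but the cells with the most Egfr had no Mki67.

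Fgfr3 averaged 43.9 ± 51.2 TPM in cells with Mki67 and 283 ± 227 TPM in cells without, a log2 difference of -2.66. Ntrk2 averaged 94.3 ± 109.1 TPM with Mki67 and 475 ± 241 TPM without, a difference of -2.32, and Fgfr2 differed by -1.65, or by -0.79 on means of log values. Insr stood at the threshold, with a difference of -1.002, and Fgfr1 below it at -0.87. The Insr share and median went the other way. Insr was detected in 54.5% of cells with and 42.6% without Mki67, with medians of 12.65 and 0.03 TPM. On means of log values the Insr difference was 0.15. Egfr was thus called higher and 4 members lower out of 6, when 26.9% of the 9319 genes compared were called higher and 26.5% lower. Cells with Mki67 had a median of 6756 detected genes and those without 3373. Among cells with at least 4000 detected genes, 11 with and 26 without Mki67, the difference was 0.55 for Egfr, -2.22 for Fgfr3 and -2.18 for Ntrk2, so at such depth Egfr no longer passed 2-fold.

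Within the 21 ribosome-rich cells, mean Ntrk2 and Fgfr3 were lower in cells with Mki67, but both 2-fold calls depended on where the ribosomal limits were set. Ntrk2 ran from 0 to 353 TPM with a median of 55.5 TPM in the 9 cells with Mki67. It ran from 3.16 to 687 TPM with a median of 246 TPM in the 12 cells without. The means were 87.2 ± 114.4 TPM with and 311 ± 252 TPM without, a log2 difference of -1.82 with overlapping ranges. Fgfr3 averaged 31.8 ± 39.8 TPM with Mki67 and 77.3 ± 59.7 TPM without, a difference of -1.26 that was -0.81 with limits of 2.5 and 5% and turned to 0.25 in ogp2 cells alone. Egfr averaged 172 ± 97.1 TPM in cells with Mki67, against 222 ± 189 TPM in cells without. Out of 6 members compared, none was called higher and Fgfr3 and Ntrk2 were called lower, against 18.6% and 23.3% of genes. The 9 cells with Mki67 also had a median ribosomal share of 9.92% and 6885 detected genes, against 7.69% and 5216 in the 12 without. With an upper limit of 8%, which kept the 9 cells with Mki67 and 6 without, the median ribosomal share was 9.92% with and 11.4% without Mki67. Mean Ntrk2 was then 87.2 TPM with and 155 TPM without Mki67, a log2 difference of -0.82 and no longer 2-fold. Among ribosome-rich cells with at least 4000 detected genes the Ntrk2 difference was -1.70. Of the 9 cells only 2 were ogp2.

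**Figure D4:**
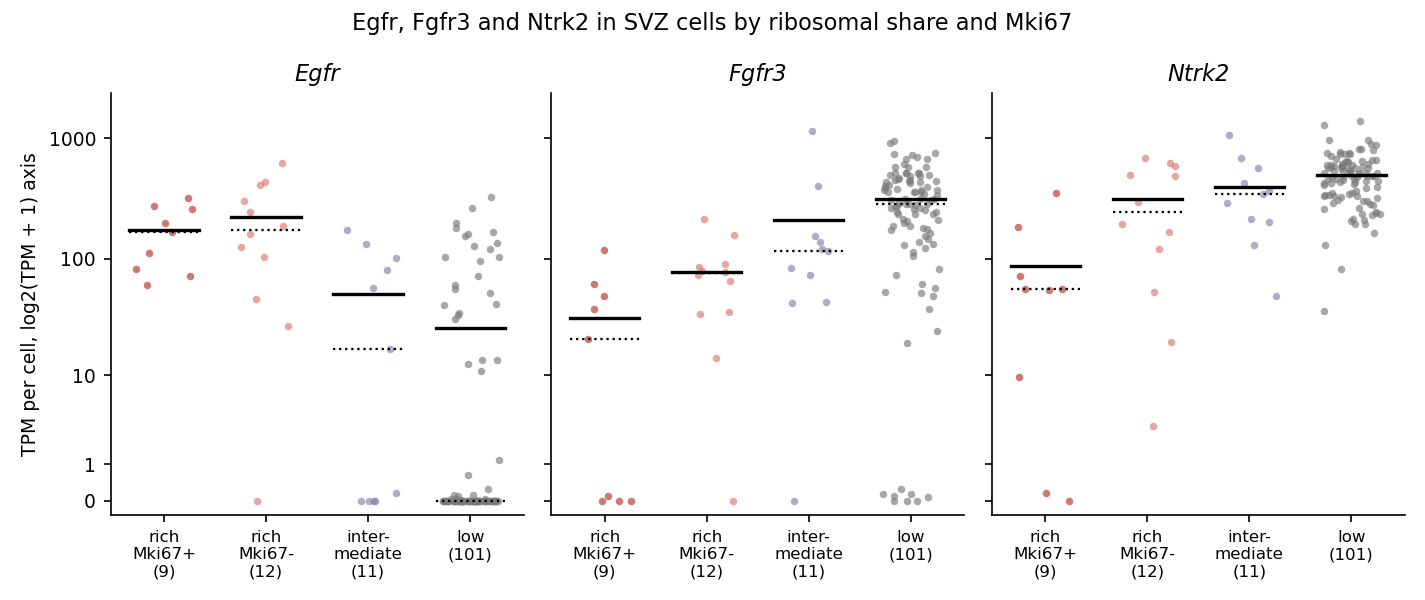
Level of Egfr, Fgfr3 and Ntrk2 in SVZ cells, in TPM on a log2(TPM + 1) axis, for ribosome-rich cells with Mki67 (Mki67+), ribosome-rich cells without it (Mki67-), intermediate and low-ribosome cells (number of cells in parentheses); solid lines are means, dotted lines medians. Mean Ntrk2 was 87.2, 311, 396 and 496 TPM in that order, while mean Egfr was 172, 222, 50.98 and 25.8 TPM.

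The partners of these receptors were followed in lists of named genes: ligands, co-receptors, adaptors with the first kinases, inhibitors and feedback genes, and targets. Between ribosome-rich and low-ribosome cells, 58 could be compared, of which 14 were called higher and 18 lower, or 24.1% and 31.03%, beside 26.8% and 23% of all genes. Their median difference was -0.24, beside 0.16 over all genes compared.

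The EGF receptor ligands that could be compared were lower in ribosome-rich than in low-ribosome cells. Hbegf, a membrane-bound EGF receptor ligand, averaged 0.309 TPM in ribosome-rich cells, with 1 of 21 positive, and 55.4 TPM in low-ribosome cells, with 35 cells (34.7%) positive. Tgfa, another EGF receptor ligand, averaged 1.86 TPM in ribosome-rich and 37.3 TPM in low-ribosome cells. These were the only 2 of 11 EGF family ligands that could be compared there, and both were called lower, beside 23% of all genes. Egf itself was detected in 4 SVZ cells (3.01%). Between cells with and without Mki67, 3 could be compared: Hbegf and Tgfa were called lower with Mki67, and Areg, the ligand amphiregulin, was called higher on 1 positive cell. Of all genes compared there, 26.5% were called lower and 26.9% higher. Fgf1, an FGF without a classical secretion signal, averaged 0.860 TPM in ribosome-rich and 52.2 TPM in low-ribosome cells, while Fgf2 was listed at 0 in all 150 cells. In cortex Hbegf averaged 94.9 TPM and Fgf1 93.95 TPM, each in 2 of 4 cells, against 43.4 TPM and 42.5 TPM in SVZ. The Ntrk2 ligands Bdnf and Ntf3 were listed at 0 in all SVZ cells, and Igf1 and Igf2 were detected in 1 SVZ cell each.

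Heparan sulphate proteoglycans, which hold FGFs to their receptors, moved both ways. Of 11 co-receptors and related receptors compared, 4 were called higher and 6 lower in ribosome-rich cells, beside 26.8% and 23% of all genes. Gpc5 averaged 32.5 TPM in ribosome-rich and 277 TPM in low-ribosome cells. Sdc4 averaged 80.04 TPM in ribosome-rich and 504 TPM in low-ribosome cells, and Sdc2 45.5 TPM in ribosome-rich and 204 TPM in low-ribosome cells. Gpc1 was the reverse, at 52.8 TPM in ribosome-rich and 5.50 TPM in low-ribosome cells.

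Of 20 adaptors and first kinases compared, 3 were called higher and 2 lower, beside 26.8% and 23% of all genes. Among the higher ones, Nras, a small GTPase, averaged 83.6 TPM in ribosome-rich and 29.1 TPM in low-ribosome cells. Hras, another, averaged 25.0 TPM in ribosome-rich and 4.47 TPM in low-ribosome cells. Of 12 inhibitors and feedback genes, 2 were called higher and 4 lower, beside the same shares of all genes. Socs3, an inhibitor of cytokine and insulin signals, averaged 75.0 TPM in ribosome-rich and 7.20 TPM in low-ribosome cells, and Spred1, an inhibitor of Ras-ERK signals, 7.36 TPM in ribosome-rich and 24.7 TPM in low-ribosome cells.

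Of 12 ERK and insulin signal targets compared, 5 were called higher and 3 lower, beside 26.8% and 23% of all genes. Egr1, an immediate early gene, averaged 837 TPM in ribosome-rich cells, with 16 of 21 positive, and 21.4 TPM in low-ribosome cells, with 5 cells positive. Ier2, another, was detected in 14 of 21 ribosome-rich cells and in no low-ribosome cell. Ccnd1, the G1 cyclin, averaged 32.1 TPM in ribosome-rich and 1.51 TPM in low-ribosome cells. Srebf1, a lipid synthesis regulator downstream of insulin, averaged 95.3 TPM in ribosome-rich and 403 TPM in low-ribosome cells. Immediate early genes are also known to be induced by tissue dissociation.

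**Figure D5:**
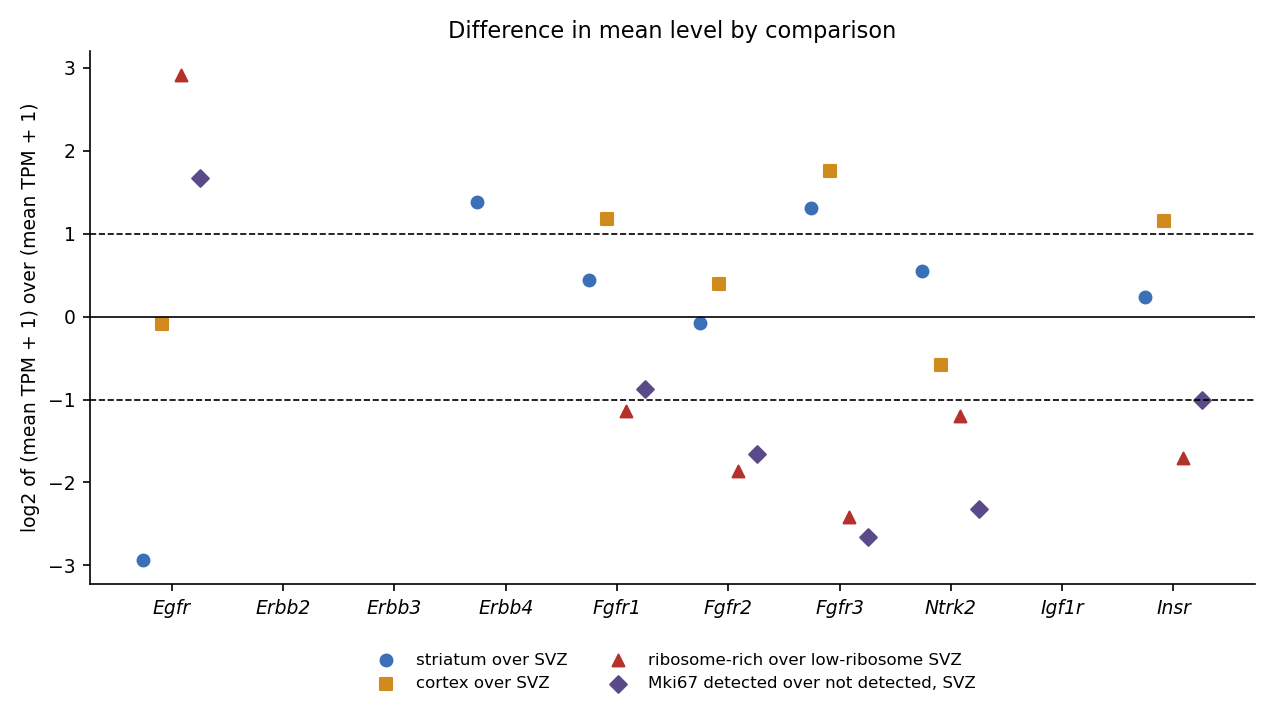
Difference in mean level, as log2 of (mean TPM + 1) over (mean TPM + 1), of the receptors with at least 10 TPM in either group, in 4 comparisons named in the legend; dashed lines mark 2-fold. Egfr was the only member called higher in ribosome-rich and in Mki67-detected SVZ cells (2.91 and 1.67), and Fgfr3 lay at -2.41 and -2.66 there and at 1.31 and 1.76 for striatum and cortex over SVZ.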

How the data were processed

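Values were deposited by the authors as TPM, 1 column per cell, in 1 table of SVZ cells and 1 of astrocytes. STAR 2.4.0g1, RSEM 1.2.18 and mm10 are named, per the submitters' processing notes; the annotation is not given in the sources used here. Gene identifiers were paired with symbols for 42425 of 43309. Each cell was rescaled to 1000000 TPM, which raised 5 SVZ cells whose deposited sums lay between 66189 and 309864. TPM keeps no read depth, so detected genes per cell (1 TPM or more) stand in for it; dropout in single cells lowers shares of cells.

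Differences are log2 of (mean TPM + 1) over (mean TPM + 1); genes under 10 TPM in both groups were left out, and 2-fold was called. Doublets were not sought among these hand-picked cells, so whether any cell was mixed was not tested. With 1 sample per group no test was run. Intervals are exact Clopper-Pearson at 95%. Computation used Python 3.11.15, pandas 2.3.3 and scipy 1.17.1. The log2 differences were checked with known fold changes put into real low-ribosome SVZ cells split at random. The 18 bulk libraries were not analysed here. Promoter sequences are from RefSeq; 3 members had no entry.

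Members and gene lists were chosen with earlier results of these data known. All members are named; from each pathway list, at most 4 genes per comparison were taken by size of difference at 20 TPM or more, and for Egfr, Fgfr3 and Ntrk2 the 3 genes of highest correlation; some genes these rules pick are not reported here. Egf, Areg, Fgf2, Bdnf, Ntf3, Igf1 and Igf2 stand outside that rule and were chosen after their values were seen. Alternatives covered the pseudocount, log means, the low-value filter, scaling, detection limits, ribosomal and Mki67 limits, name series, single cortex cells and, added after seeing the data, the highest cells, cells with 4000 genes or more and cells with markers of other types.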

Additional observations from a re-analysis of the deposited data

Results flagged for a closer look

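Among the 4 cortex cells, 1 cell stood far above the others for Egfr, at 208.63 TPM with the other 3 listed at 0. For Igf1r, another of the 4 cortex cells stood apart, at 4.75 TPM with the other 3 listed at 0. The criterion marks about 1 in 20 groups by chance only where values are spread evenly about a mean; among 4 cells, every gene found in a single cell meets it, so for scarce genes it carries little weight. Erbb2, Erbb3 and Erbb4 were listed at 0 in all 4 cortex cells.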

How the results depend on the processing

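Of 95 recomputed counts of called receptors, 85 stayed within 1.5 times the main count. The share of all genes called was not recomputed under these settings, so the counts below describe the members only. Of 608 log2 differences, 517 moved little, 80 moved and 11 turned sign. In ribosome-rich against low-ribosome SVZ cells, Egfr stayed between 2.56 and 5.38 and Fgfr3 between -2.90 and -2.06 over 14 settings. The called count for Mki67 in SVZ was 3 on means of log values against 5, where Insr turned to 0.15. For cortex against SVZ it was 6 with no filter and 1 (Fgfr3) with median-ratio scaling, against 3. Asking for 10 TPM in both groups left 1 instead of 3 for striatum against SVZ, against cortex and against low-ribosome SVZ. Leaving out cortex cells in turn gave 1 to 4 for striatum against cortex. Without the highest cells it was 1 for striatum against cortex and 1 against low-ribosome SVZ. With ribosomal limits of 2.5 and 5%, Mki67 within ribosome-rich cells gave 1 instead of 2, and in ogp2 cells alone Fgfr3 turned to 0.25 there. Erbb4 in striatum, without the 2 striatum cells named OStr, turned to -2.90 against SVZ, 0 against cortex and -3.22 against low-ribosome SVZ; without the highest cells it turned to -0.81, 0 and -0.85 in the same comparisons. Leaving out cortex cells in turn put Insr in cortex against SVZ between -0.033 (without replicate 1) and 1.56. Egfr in striatum against cortex lay between -3.26 and 2.88 in the same way, the upper value without replicate 3, and turned to 2.33 without the highest cells, values set by the pseudocount since the cortex cells left are listed at 0. These turns follow from leaving out the 1 cell that carried the signal; for the other settings the cause was not tested. No paired analysis was possible because no result comes from a test and cells carry no animal. The 4 cortex cells and unknown read depth limit every statement on scarce receptors: a receptor listed at 0 in all 4 cortex cells could be present in up to 60.2% of such cells by the exact interval.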
